A study of Mus musculus with 6 samples.

Results

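Circadian clock genes were followed in bone marrow (BM) cells of *Phc2* KO and WT mice. The rule named 15 genes of the clock and took those found in a table of 621 genes, which left 2 members, *Arntl* and *Per1*. The other 13, among them *Clock*, the cryptochromes, the REV-ERB receptors and *Dbp*, were not analysed here. The authors had limited that table to genes that differed by a factor of 2 or more between some KO and some WT library, out of 9 such pairs, so both members were chosen by measured values of KO against WT. These values are therefore given as a description, with no test of KO against WT. The mice were of C57BL/6 background and 8 weeks of age, and BM cells were taken from femurs and tibias. The 3 KO libraries carry replicate numbers 4, 8 and 9 and are given as *Phc2* knockouts by their titles and source but as *Phc2* heterozygotes by their genotype field. The 3 WT libraries carry numbers 1, 3 and 7. Mutant and WT mice were bred from heterozygous parents. *Phc2*, a subunit of Polycomb repressive complex 1, was not analysed here, so its transcript did not check these labels. Whether each library is of a separate mouse is not stated in the sources. Each genotype held libraries with and without *Xist*, a transcript of female cells, so the libraries of a genotype are not all from the same mouse.

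The mammalian clock is a feedback loop of transcription. ARNTL, also called BMAL1, pairs with CLOCK or NPAS2 on E-box sequences and switches on the period and cryptochrome genes, whose proteins then repress that pair. REV-ERB and ROR nuclear receptors act on *Arntl* itself, so that in many mouse tissues its transcript peaks at about the time when *Per1* is low. In mouse BM the clock is known for daily rhythms in the release of leukocytes and of hematopoietic stem and progenitor cells (HSPCs). *Per1* is in addition induced directly by glucocorticoids and by stress signals. The sources used here give no time of collection for any library, so the values below cannot be placed on a daily cycle.

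*Arntl* encodes the activator of the loop (gene ID 11865). Its gene spans positions 113178471 to 113314126 of chromosome 7 on GRCm38. *Per1* encodes a repressor of the loop (gene ID 18626) and spans positions 69095108 to 69109965 of chromosome 11. A promoter window of each is printed because the opposite phases of these genes are known to be set by different elements. The windows are those of RefSeq on GRCm38.p6, from 250 bases before to 50 bases after a transcript start, on the plus strand. Capitals mark matches on either strand to the E-box CACGTG, to the nuclear receptor half-site AGGTCA and to its T-extended form TAGGTNA, which overlaps AGGTCA. These motifs were chosen, and the printed windows picked, after the sequences were seen. The *Arntl* window is at chr7:113207261-113207560 and the *Per1* window at chr11:69098699-69098998.
Arntl: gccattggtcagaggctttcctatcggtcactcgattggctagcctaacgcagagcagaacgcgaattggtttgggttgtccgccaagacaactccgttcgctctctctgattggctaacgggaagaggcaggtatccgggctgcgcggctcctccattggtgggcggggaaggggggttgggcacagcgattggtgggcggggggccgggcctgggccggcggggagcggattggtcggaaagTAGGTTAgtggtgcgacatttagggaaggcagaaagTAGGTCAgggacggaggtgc
Per1: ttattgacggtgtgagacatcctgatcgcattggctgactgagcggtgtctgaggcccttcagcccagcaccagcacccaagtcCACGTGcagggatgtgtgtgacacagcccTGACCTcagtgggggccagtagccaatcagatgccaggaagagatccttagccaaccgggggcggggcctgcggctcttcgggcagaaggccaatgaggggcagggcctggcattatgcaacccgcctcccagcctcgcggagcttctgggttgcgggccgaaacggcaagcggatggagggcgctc
The *Arntl* window held TAGGTTA at position -6 and TAGGTCA at position 31 from the start, and no CACGTG. The *Per1* window held CACGTG at position -166, and AGGTCA on the minus strand at position -137. Of 32851 promoter windows of this length, 7.15% held CACGTG, 16.3% held AGGTCA and 8.29% held TAGGTNA. A match describes the letters and is not evidence of binding. Each gene had 1 further window in the reference, and the window with more matches is the one printed. That of *Arntl* starts slightly upstream and shares the TAGGTTA, and that of *Per1* held none of these motifs.

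*Arntl* had a lower mean in KO BM cells than in WT BM cells, but 1 of the WT libraries fell between KO libraries. Levels are FPKM, that is fragments scaled to exon length and sequencing depth. *Arntl* had 9.30, 12.4 and 9.68 FPKM in KO libraries 4, 8 and 9, against 26.5, 15.4 and 9.90 FPKM in WT libraries 1, 3 and 7. WT replicate 1 was the highest of the 6 libraries, WT replicate 3 was next, and WT replicate 7 lay between KO replicates 9 and 8. The KO mean was 10.4 ± 1.67 FPKM and the WT mean 17.3 ± 8.46 FPKM (SD, n = 3 libraries each). The difference of mean log2(FPKM + 1), KO minus WT, was -0.58, against a within-group SD of 0.49. Of the 621 genes, 61.8% had a lower and 38.2% a higher mean in KO on this scale, with a median of -0.35, so *Arntl* stood 0.23 below the median gene of the table (-0.23). Over the 9 possible pairs, the ratio of FPKM, KO over WT, ran from 0.351 to 1.25 with a median of 0.630, and it was above 1 in 1 pair. *Arntl* entered the table through 2 pairs, both against WT replicate 1. Its fold on the authors' normalized scale was 2.56 in the larger of them. Without WT replicate 1 the log2 difference of *Arntl* was -0.23, and without WT replicate 7 it was -0.90. The median of all 621 genes was then -0.13 and -0.58, so *Arntl* stood at -0.10 and -0.32 relative to it.

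*Per1* was spread the other way within each genotype, and its KO and WT libraries overlapped. It had 14.0, 7.54 and 8.26 FPKM in KO libraries 4, 8 and 9, against 6.68, 6.78 and 13.7 FPKM in WT libraries 1, 3 and 7. KO replicate 4 and WT replicate 7 were high and almost level, and the other 4 libraries lay between 6.68 and 8.26 FPKM. The KO mean was 9.92 ± 3.53 FPKM and the WT mean 9.07 ± 4.05 FPKM (SD, n = 3 libraries each). The log2 difference of *Per1*, KO minus WT, was 0.14 with a within-group SD of 0.49, and *Per1* stood 0.49 above the median gene. The ratio of FPKM, KO over WT, ran from 0.548 to 2.09 with a median of 1.13. *Per1* entered the table through 1 pair, KO replicate 4 over WT replicate 1, at a fold of 2.04, just inside the limit. When 1 library was left out its log2 difference became -0.11 (KO replicate 4), -0.02 (WT replicate 1) or -0.01 (WT replicate 3), so its sign rested on single libraries. It was 0.45 without WT replicate 7. The median of all genes moved too, and *Per1* stood above it in each of these settings, from 0.11 without WT replicate 1 to 1.03 without WT replicate 7.

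**Figure D1:**
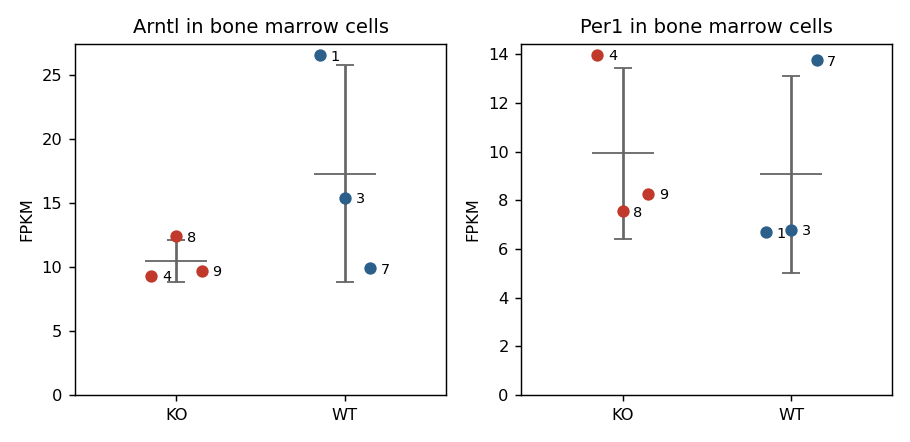
*Arntl* (left) and *Per1* (right) in FPKM, with KO libraries in red and WT libraries in blue, each point labelled by its replicate number; the bar and whiskers are the mean and SD of 3 libraries. *Arntl* is highest in WT replicate 1 at 26.5 FPKM, whereas *Per1* is highest in KO replicate 4 at 14.0 FPKM and WT replicate 7 at 13.7 FPKM.

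In both members the ranges of KO and WT overlapped. Over the table, the KO libraries lay all above the WT libraries in 5.96% of genes and all below in 1.29%. As the rule used this contrast, nothing is read from these shares. Without WT replicate 7, *Arntl* was lower in every remaining KO library than in WT replicates 1 and 3, and *Per1* was higher in every one. The KO libraries then lay all below in 45.7% of the 621 genes and all above in 21.1%, so this was common in the table. Without KO replicate 8, *Arntl* was again lower in each remaining KO library, as were 5.64% of genes.

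The ratio of *Arntl* to *Per1* within a library is unchanged by a single scaling factor for the library, but can change under quantile normalization. On FPKM this ratio came to 0.665, 1.64 and 1.17 in KO libraries 4, 8 and 9, against 3.97, 2.27 and 0.720 in WT libraries 1, 3 and 7. WT replicates 1 and 3 had the 2 highest ratios, whereas WT replicate 7 lay next to KO replicate 4, with more *Per1* than *Arntl* in both. The mean log2 ratio was 0.12 ± 0.66 in KO and 0.90 ± 1.26 in WT (SD, n = 3 libraries each). The difference of -0.78 was smaller than the SD of the WT libraries. The library with the highest *Arntl* had the lowest *Per1* and the library with the lowest *Arntl* had the highest *Per1*. Over the 6 libraries Pearson's r of the pair was -0.70 and Spearman's rho was -0.94 on log2(FPKM + 1), given as a description of 6 points that share their library. Without WT replicates 1 and 3, the 2 libraries farthest from the median of *Arntl*, r was -0.68. After the genotype means were taken out, r was -0.75.

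**Figure D2:**
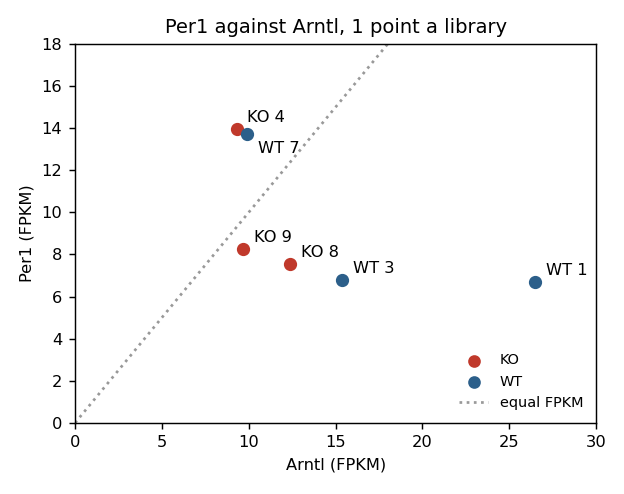
*Per1* against *Arntl* in FPKM, 1 point for each library, KO in red and WT in blue; the dotted line marks equal FPKM. KO replicate 4 and WT replicate 7 lie above the line, at ratios of *Arntl* to *Per1* of 0.665 and 0.720, and the other 4 libraries lie below it.

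By Pearson's r, an inverse course of this kind was frequent in the table. Of the other 620 genes, 121 had a lower r with *Arntl* than *Per1* had, and 104 had a lower r after the genotype means were taken out. There were 128 genes with r of at least 0.9 and 55 with r of at most -0.9, and the median r was 0.47. These counts moved with the measure. With Spearman's rho there were 55 genes of at least 0.9 and 43 of at most -0.9, with *Per1* among the 43. After quantile normalization and median scaling, 26 and 19 genes had r of at most -0.9. Without WT replicate 1 there were 34 genes of at most -0.9. The 5 named genes most like *Arntl*, of those with a mean of at least 1 FPKM, were *Tnfrsf19*, *Rsph1*, *Ddc*, *Eps8* and *Stambpl1*. *Tnfrsf19*, a receptor of the tumor necrosis factor family, had 3.36, 4.81 and 3.45 FPKM in KO libraries 4, 8 and 9, against 11.8, 6.34 and 3.72 FPKM in WT libraries 1, 3 and 7. Its order over the libraries was that of *Arntl*. The 5 least like *Arntl* were *Icosl*, *Scrg1*, *Galnt6*, *Klrc2* and *Soat2*, with r from -0.98 to -0.96. *Icosl*, the ligand of a T-cell costimulator, had 22.8, 18.8 and 25.0 FPKM in KO libraries 4, 8 and 9, against 10.6, 14.8 and 22.0 FPKM in WT libraries 1, 3 and 7. It was lowest in the 2 libraries with the highest *Arntl*.

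**Figure D3:**
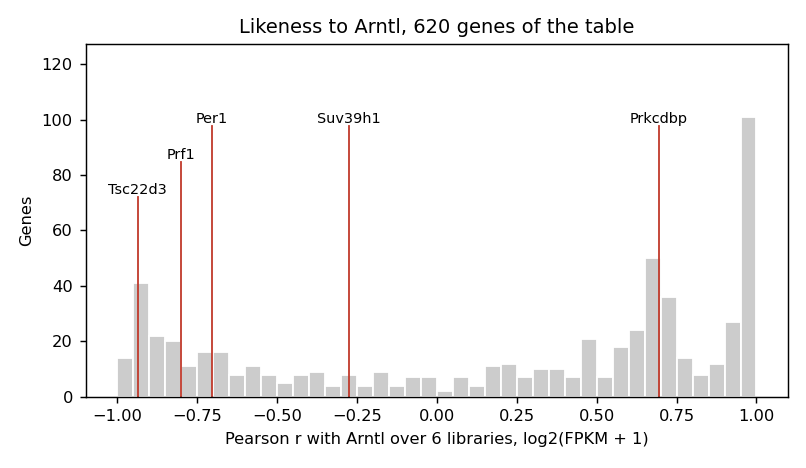
Pearson's r with *Arntl* over 6 libraries on log2(FPKM + 1), as a histogram of 620 genes, with 5 genes marked in red. *Per1* at -0.70 lies among many genes of negative r, and the tallest bar stands next to 1.

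The authors' deposited annotation puts some of the 621 genes under a Gene Ontology term that names circadian processes, among them *Suv39h1*, *Prkcdbp* and *Prf1* besides *Arntl* and *Per1*. *Suv39h1*, a histone H3 lysine methyltransferase, had 27.4, 30.7 and 12.8 FPKM in KO libraries 4, 8 and 9, against 15.8, 27.9 and 28.9 FPKM in WT libraries 1, 3 and 7. It was low in KO replicate 9 and WT replicate 1, which differ in *Arntl*. *Prkcdbp*, a caveolar coat protein known to bind PER2, had 1.81, 0.920 and 0.574 FPKM in KO libraries 4, 8 and 9, against 2.71, 2.95 and 1.02 FPKM in WT libraries 1, 3 and 7. *Arntl* and *Prkcdbp* were both highest in WT libraries 1 and 3. *Prf1*, which encodes the perforin of cytotoxic lymphocytes, had 2.88, 2.05 and 4.06 FPKM in KO libraries 4, 8 and 9, against 1.55, 1.74 and 2.56 FPKM in WT libraries 1, 3 and 7. In each of these 5 genes the ranges of KO and WT overlapped.

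*Per1* belongs also to the genes induced by glucocorticoids, of which 5 of a list of 17 were in the table. All 5 had a higher mean in KO, as did 38.2% of the 621 genes (median log2 difference 0.33, against -0.35 for all 621 genes). The groups of each of the 5 overlapped. Without WT replicate 1 the median was -0.03, against -0.13 for all genes, and 4 of the 5 had a lower mean in KO. *Tsc22d3*, the glucocorticoid-induced leucine zipper, had 85.7, 66.9 and 106 FPKM in KO libraries 4, 8 and 9, against 37.7, 65.2 and 118 FPKM in WT libraries 1, 3 and 7. It was lowest in WT replicate 1, where *Arntl* was highest, and highest in WT replicate 7. *Dusp1*, a phosphatase of stress kinases, had 47.0, 69.6 and 124 FPKM in KO libraries 4, 8 and 9, against 24.2, 41.5 and 104 FPKM in WT libraries 1, 3 and 7. *Ddit4*, an inhibitor of mTORC1 signaling, had 30.4, 9.52 and 17.3 FPKM in KO libraries 4, 8 and 9, against 13.4, 14.9 and 20.7 FPKM in WT libraries 1, 3 and 7. As with *Per1*, its 2 highest libraries were KO replicate 4 and WT replicate 7. *Il1r2* had 28.5, 43.9 and 45.1 FPKM in KO libraries 4, 8 and 9, against 17.3, 23.7 and 67.4 FPKM in WT libraries 1, 3 and 7. In *Tsc22d3*, *Dusp1* and *Il1r2* the 2 highest libraries were KO replicate 9 and WT replicate 7, unlike *Per1*. The mean log2(FPKM + 1) of the 4 genes other than *Per1* came to 5.47, 5.28 and 5.86 in KO libraries 4, 8 and 9, against 4.49, 5.02 and 6.04 in WT libraries 1, 3 and 7. Its r over the 6 libraries was -0.91 with *Arntl* and 0.68 with *Per1*. The 4 immediate-early genes of the table, *Fos*, *Fosb*, *Jun* and *Dusp1*, which respond to stress within minutes, had list means of 4.43, 5.48 and 5.94 in KO libraries 4, 8 and 9, against 4.05, 4.27 and 5.27 in WT libraries 1, 3 and 7. Their r was -0.65 with *Arntl* and 0.14 with *Per1*. The part of glucocorticoid or stress signaling in the values of *Per1* was not tested.

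Genes listed as outputs of the clock were few in the table. Of 21 listed outputs, 3 were there, *Tsc22d3* and the heat shock genes *Hspa1a* and *Hspa1b*. The near-identical sequences of *Hspa1a* and *Hspa1b* make the division of reads between them uncertain. *Tsc22d3* is also among the genes induced by glucocorticoids above. Whether the clock drives these 3 genes in BM cells was not tested. *Hspa1a* had 0.554, 3.38 and 8.02 FPKM in KO libraries 4, 8 and 9, against 0.606, 1.10 and 9.19 FPKM in WT libraries 1, 3 and 7. It was high in KO replicate 9 and WT replicate 7 and low in KO replicate 4 and WT replicate 1, an order unlike that of *Per1*. With all 6 libraries the mean of log2(FPKM + 1) was higher in KO for each of the 3 outputs, as for 38.2% of the 621 genes. The mean FPKM of *Hspa1b*, however, was 5.02 in KO and 5.12 in WT. All 3 had a lower mean log2 value in KO without WT replicate 1, and both heat shock genes did without KO replicate 9 or without WT replicate 3. Of 24 leukocyte trafficking genes with known daily rhythms, 4 were there and all 4 had a higher mean in KO, as did 38.2% of the 621 genes. The median log2 difference of the 4 was 0.67, against -0.35 for all genes. With a pseudocount of 0.1 in place of 1 it was 1.27, against -0.41. *Cxcr5*, a B-cell chemokine receptor, had 11.0, 9.30 and 12.3 FPKM in KO libraries 4, 8 and 9, against 4.95, 6.04 and 8.84 FPKM in WT libraries 1, 3 and 7, so that its groups did not overlap. *Ccl2*, a monocyte chemoattractant known to be repressed by ARNTL in mouse monocytes, had 1.43, 1.21 and 2.04 FPKM in KO libraries 4, 8 and 9, against 0.382, 0.710 and 0.732 FPKM in WT libraries 1, 3 and 7. It did not overlap either, and both genes were among the 5.96% of the table with every KO library above every WT library. The groups of the other 2 overlapped. *Cxcl2*, a neutrophil chemoattractant, had 1.59, 5.93 and 10.4 FPKM in KO libraries 4, 8 and 9, against 0.480, 1.10 and 9.08 FPKM in WT libraries 1, 3 and 7. *Ccl8*, a chemokine with a clock-dependent rhythm in mouse monocytes, had 0.908, 1.72 and 0.557 FPKM in KO libraries 4, 8 and 9, against 0.644, 0.290 and 0.183 FPKM in WT libraries 1, 3 and 7. Its r with *Arntl* was -0.02.

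**Figure D4:**
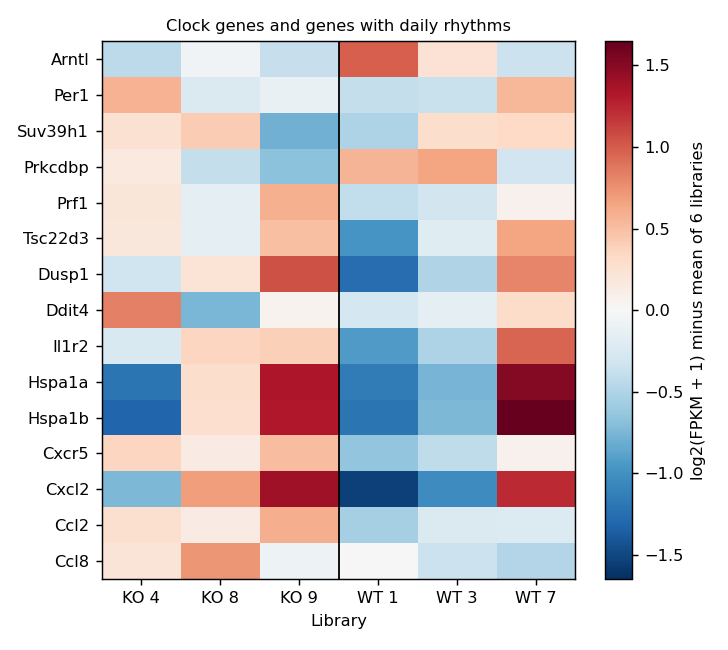
Clock-annotated genes, genes induced by glucocorticoids, heat shock genes and trafficking genes in rows, libraries in columns (KO left of the black line, WT right of it); color is log2(FPKM + 1) minus the mean of the gene over 6 libraries. *Arntl* is above its mean in WT replicates 1 and 3 and *Per1* in KO replicate 4 and WT replicate 7.

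Markers of BM cell types moved with *Arntl* over the libraries. In bulk RNA, fewer cells of a type and less RNA per cell cannot be told apart. All 11 B-cell precursor markers in the table, of 13 listed, had a lower mean in KO, but 8 of 11 did after quantile normalization and 9 of 11 after median scaling. Their median log2 difference of -0.35 was that of all 621 genes, of which 61.8% had a lower mean in KO. Without WT replicate 1 it was -0.07, with 8 of 11 lower, against -0.13 for all genes. Without WT replicate 7 it was -0.72, against -0.58 for all genes. The mean log2(FPKM + 1) of the B-cell precursor markers was 5.22 to 5.63 in the KO libraries and 5.09 to 6.56 in the WT libraries. WT replicate 1 at 6.56 and WT replicate 3 at 5.78 were the 2 libraries with the highest *Arntl*, and the r of the list with *Arntl* was 0.97. All 7 T and NK cell markers, of 14, had a higher mean in KO, as did 38.2% of the 621 genes. The list means were 2.96 to 3.84 in KO and 2.14 to 3.34 in WT, and r with *Arntl* was -0.92. The 4 markers listed for monocytes, macrophages and dendritic cells, of 13, were all genes of MHC class II presentation. Their list means were 8.22 to 8.53 in KO and 7.03 to 8.17 in WT, and their r with *Arntl* was -0.93. This list thus stands for these 4 genes and cannot be assigned to those cell types. With *Per1*, r was -0.78 for the B-cell precursor markers, 0.79 for the T and NK cell markers and 0.60 for the MHC class II genes. Osteoblast and chondrocyte markers, 12 of 20, had list means of 4.53, 2.84 and 3.05 in KO libraries 4, 8 and 9, against 5.34, 4.84 and 2.73 in WT libraries 1, 3 and 7. KO replicate 4 was thus high for these markers and lowest for *Arntl*, and r was 0.69. The r with *Arntl* was 0.70 for 8 endothelial markers and 0.52 for 5 reticular and adipocyte markers. Markers of 2 further lists went opposite ways. Of 5 markers of mature B cells and plasma cells, r was -0.88 for *Cr2*, -0.95 for *Fcer2a* and -0.87 for *Jchain*, but 0.97 for *Sdc1* and 0.99 for *Irf4*. Of 3 erythroid markers, all globin genes, r was -0.44 for *Hba-a1* and -0.70 for *Hbb-bs*, but 0.89 for *Hbb-bt*, which had 1581 FPKM in WT replicate 1 and 90.0 to 109 FPKM in the other libraries. The division of reads between such similar genes is uncertain. *Xist* had 74.6, 0.0192 and 0.0155 FPKM in KO libraries 4, 8 and 9, against 113, 98.2 and 0.00848 FPKM in WT libraries 1, 3 and 7. It was thus present in 1 of 3 KO libraries and 2 of 3 WT libraries, and these 3 had the highest means of the osteoblast and endothelial lists. The part of sex in the values of *Arntl* and *Per1* was not tested. Of 14 neutrophil markers none was analysed here, so the most abundant myeloid cells of BM were not followed. The part of cell makeup in the values of *Arntl* and *Per1* was not tested.

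**Figure D5:**
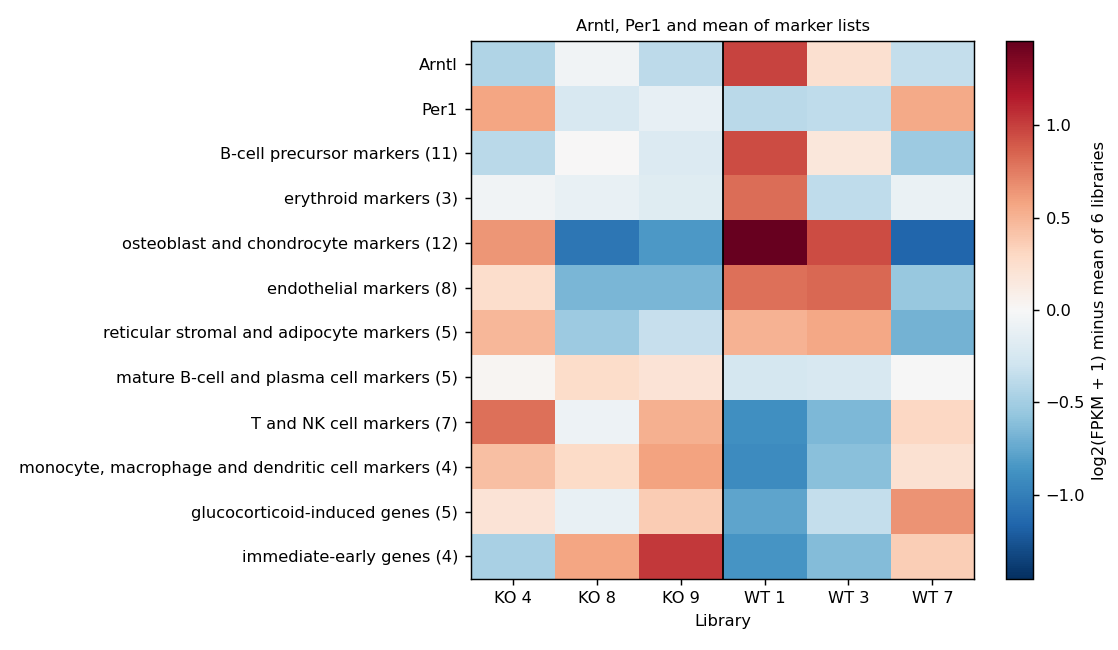
*Arntl*, *Per1* and the mean of marker and response gene lists (number of genes in brackets) in rows and libraries in columns, KO left of the black line and WT right of it; color is mean log2(FPKM + 1) minus its mean over 6 libraries. The row of B-cell precursor markers follows that of *Arntl*, and the row of T and NK cell markers runs opposite to it. So does the row labelled monocyte, macrophage and dendritic cell markers, whose 4 genes are all of MHC class II presentation. The rows of erythroid and of mature B-cell and plasma cell markers average genes of opposite course.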

How the data were processed

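RNA of BM cells was poly(A)-selected and sequenced as 6 libraries, 3 KO and 3 WT. The authors aligned reads to mm10 with HISAT2 version 2.0.5 and deposited FPKM from StringTie version 1.3.3b for each library and gene. The authors also deposited log2 values of FPKM after a normalization that is not named in the sources used here. Both were read for 621 genes. Fold columns, enrichment statistics and their p-values in the deposited sheets are the authors' own comparisons and were not used. From the sheet of Gene Ontology terms only the assignment of genes to terms was taken. Reads were not used here, so depth is unknown and counting intervals are not given.

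FPKM were transformed to log2(FPKM + 1), which understates the change of low genes. Groups are described by values per library, mean, SD and overlap. No test of KO against WT was made, since the authors selected these genes by that contrast. Correlations over 6 libraries carry no p-value for the same reason. Clock members, gene lists and the rule for named genes were chosen with earlier results of these data known. Named are the clock members, the 5 genes of the highest and the 5 of the lowest r with *Arntl* at a mean of at least 1 FPKM with no predicted-gene symbol, genes under circadian terms, up to 4 genes of each clock or rhythm list by mean, the highest gene of each marker list, and *Xist*. Not every named gene is printed, and 1 is not reported here. The alternatives were a pseudocount of 0.1, quantile normalization, median scaling, the authors' log2 columns, a mean of at least 1 FPKM, Spearman's rho and leaving out each library. The steps used Python 3.11.15, numpy 2.4.6, pandas 2.3.3 and scipy 1.17.1 and were tested on simulated data. RefSeq coordinates on GRCm38 (mm10) were found for 615 of 621 genes by gene ID. Promoter sequences are of RefSeq on GRCm38.p6 and matched both members.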

Additional observations from a re-analysis of the deposited data

How the results depend on the processing

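No paired analysis was made because the sources used here give no pairing of KO with WT libraries. The meaning of the replicate numbers is not stated. The log2 difference of *Arntl* was negative in all alternatives run, from -0.61 to -0.42 over the scales and from -0.90 to -0.23 when 1 library was left out. That of *Per1* was 0.16 to 0.27 over the scales but -0.11 to 0.45 when 1 library was left out. Quantile normalization moved the median of all genes to -0.18 and median scaling moved it to -0.23, from -0.35. Relative to it *Arntl* stood at -0.24 and -0.21 and *Per1* at 0.43 and 0.49. When 1 library was left out, *Arntl* stood at -0.40 to -0.10 and *Per1* at 0.11 to 1.03 relative to that median. Their r was -0.78 to -0.71 over the scales and -0.80 to -0.64 without 1 library. The 45 genes without overlap of KO and WT became 63 to 415 when 1 library was left out, with 415 without WT replicate 7, 146 without KO replicate 4 and 117 without KO replicate 8, and 63, 63 and 64 without KO replicate 9, WT replicate 1 and WT replicate 3. The 128 genes with r of at least 0.9 with *Arntl* were 55 with Spearman's rho and 95 to 179 without 1 library. The 55 genes with r of at most -0.9 were 43 with Spearman's rho, 26 after quantile normalization and 19 after median scaling. They were 34 to 80 without 1 library, with 34 without WT replicate 1. The median log2 difference of the 4 trafficking genes was 0.67, and 1.27 with a pseudocount of 0.1. For the 3 listed clock outputs the median was 0.28, and -0.32 to 1.07 without 1 library. For the 5 genes induced by glucocorticoids the median was 0.33, and -0.03 to 0.76 without 1 library. Leaving out a library can only keep or raise the count of genes without overlap, as fewer values have to separate. The cause of the other shifts was not tested. Depth limits were not determined.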
